A study of Mus musculus with 72 samples.

Results

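The genes that carry fatty acids through oxidation and on into the tricarboxylic acid (TCA) cycle were followed across brown (BAT) and white (WAT) fat of mice with or without the lipases ATGL and HSL. The 38 genes were listed by their place in the pathway, with 18 in mitochondrial oxidation, 3 in peroxisomal oxidation and 17 in the TCA cycle with the pyruvate dehydrogenase complex that feeds it. A gene was measured if a probe had a detection p under 0.05 on 3 or more arrays, and was then read on its brightest probe. This left 37 of the 38, among 12265 genes measured in all. Acsl1, which activates long-chain fatty acids to acyl-CoA, had no probe in the files used here.

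RNA from 72 fat samples had been hybridized to 1-colour Illumina MouseRef-8 v2.0 bead arrays. Interscapular BAT came from DAKO, HSLAKO, ATGLAKO and Control mice, with 5, 4, 5 and 5 arrays at 3 months, 4 each at 7 months and 4 each at 12 months, and from DAKO mice with 5 arrays at 14 months, which is the late tumor stage in the study's design. Perigonadal WAT came from the same genotypes at 3 months with 4, 4, 5 and 3 arrays. HSLAKO mice were homozygous for a floxed Lipe allele, ATGLAKO mice lacked Pnpla2 in fat, and DAKO mice carried both deletions. All 4 genotypes carried a Cre transgene under the Fabp4 promoter, which was the only change in Control mice (titled wildtype as well), and all were on a C57BL/6J background. Fabp4 is expressed in adipocytes and also in macrophages, and which cells lost the genes was not measured here. The mice were fasted before the tissue was taken. By the sample names, each of the 56 BAT arrays came from a different mouse, and 13 mice gave both a BAT and a WAT array. The p-values measure the spread between these samples. In the main comparisons this spread was pooled over all labelled groups, of every age and both tissues. A p-value there does not rest on the spread of the compared arrays alone, and groups that split widely add to it. The fits treat the BAT and WAT arrays of 1 mouse as separate.

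In mitochondria, an acyl-CoA enters through the carnitine shuttle and is shortened in repeated rounds of dehydrogenation, hydration, a further dehydrogenation and thiolysis, each giving acetyl-CoA. Peroxisomes run a similar spiral on very long or branched chains and pass the products on. The TCA cycle then burns acetyl-CoA, from fat or from pyruvate, and supplies the electrons that brown adipocytes turn into heat when uncoupling protein 1 (Ucp1) lets protons leak back. ATGL, the product of Pnpla2, and HSL, the product of Lipe, release the fatty acids from stored triglyceride.

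The promoters were read for 3 motifs of factors known to bind genes of oxidative metabolism. These were TCAAGGTCA (estrogen-related receptors), the motif of nuclear respiratory factor 1, whose letters stand in capitals in the Etfdh promoter, and the PPAR-RXR repeat of 2 AGGTCA copies with 1 base between them, on both strands of the window around a start site. The bare AGGTCA, which overlaps the first and last of these, was added after they had been counted. RefSeq (GRCm38.p6) gave a promoter for 32 of the 37 measured genes, 37 promoters in all. Acaa2, Cpt1b, Decr1, Hsd17b4 and Idh3a are named only. The long motifs were rare in these promoters and among all promoters alike, so the counts do not set these genes apart. Some genes, such as Ogdh, gave more than 1 promoter window. TCAAGGTCA was in 0 of 37 (0.423% of 32851 promoters), the PPAR-RXR repeat in 0 of 37 (0.0396% of all) and the nuclear respiratory factor 1 motif in 1 of 37, that of Etfdh (0.971% of all). AGGTCA was in 7 of 37, those of Acadm, Acadvl, Echs1, Fh1, Idh3g, Ogdh and Sucla2 (16.3% of all). The promoters of 4 genes are shown, with matches in capitals. Acadvl had the largest slope along Ucp1 among genes with a match, Sucla2 had the smallest slope of all, Etfdh held the only nuclear respiratory factor 1 motif, and Acaa1b was the gene that passed the test between knockout and Control.
Acadvl (chr11:70015379-70015678, minus strand): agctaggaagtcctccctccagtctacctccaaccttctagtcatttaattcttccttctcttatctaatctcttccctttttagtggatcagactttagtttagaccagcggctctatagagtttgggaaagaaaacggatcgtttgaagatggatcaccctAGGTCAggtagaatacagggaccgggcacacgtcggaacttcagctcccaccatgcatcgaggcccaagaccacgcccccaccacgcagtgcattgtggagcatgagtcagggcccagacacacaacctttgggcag
Sucla2 (chr14:73552536-73552835, plus strand): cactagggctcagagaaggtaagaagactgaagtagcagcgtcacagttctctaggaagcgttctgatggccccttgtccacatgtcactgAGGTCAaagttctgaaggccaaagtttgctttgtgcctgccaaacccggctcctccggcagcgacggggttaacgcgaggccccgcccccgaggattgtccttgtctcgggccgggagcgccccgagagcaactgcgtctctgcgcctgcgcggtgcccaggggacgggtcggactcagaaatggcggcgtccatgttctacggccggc
Etfdh (chr3:79628718-79629017, minus strand): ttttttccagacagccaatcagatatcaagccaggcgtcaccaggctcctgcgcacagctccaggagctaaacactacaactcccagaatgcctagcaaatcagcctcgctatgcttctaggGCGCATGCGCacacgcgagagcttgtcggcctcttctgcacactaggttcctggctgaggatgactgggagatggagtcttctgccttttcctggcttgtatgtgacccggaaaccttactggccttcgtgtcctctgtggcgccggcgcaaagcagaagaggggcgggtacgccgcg
Acaa1b (chr9:119157044-119157343, minus strand): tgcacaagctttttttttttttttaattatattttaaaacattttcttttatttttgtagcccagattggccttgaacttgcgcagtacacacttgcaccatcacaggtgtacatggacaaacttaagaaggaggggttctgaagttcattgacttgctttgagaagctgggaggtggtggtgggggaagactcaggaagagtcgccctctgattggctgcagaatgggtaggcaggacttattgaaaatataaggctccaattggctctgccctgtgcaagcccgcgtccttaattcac
A match is a string of letters in this window and was not tested as a binding site. Acadvl and Sucla2, with slopes of 0.43 and 0.06 along Ucp1, each held 1 AGGTCA.

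Part of the arrays went against their labels, and this bears on every comparison below. Mesothelial genes mark the lining of perigonadal fat, and 11 of 12 listed were measured. Their mean log2 signal left a gap between 5.45 and 6.06, with 16 arrays above the gap and 56 under it. The 16 were 2 of 4 ATGLAKO BAT arrays at 7 months (replicates 1 and 2), 4 of 4 Control BAT arrays at 7 months, 1 of 4 ATGLAKO BAT arrays at 12 months (replicate 4), 4 of 4 Control BAT arrays at 12 months, 4 of 5 ATGLAKO WAT arrays and 1 of 3 Control WAT arrays. Ucp1, a defining gene of brown adipocytes, left a gap between 8.25 and 11.38 on the 56 arrays labelled BAT, with 33 above it and 23 under it. Of those 23, 11 had the mesothelial signal. The other 12 were 7 DAKO and 5 HSLAKO arrays at 7 months or later, and low Ucp1 by itself is not counted here as going against a label. Of the 16 arrays labelled WAT, 10 had Ucp1 between 11.35 and 13.60, near or in the range of the 33 BAT arrays above the gap. These were 3 of 4 DAKO, 4 of 4 HSLAKO, 1 of 5 ATGLAKO and 2 of 3 Control WAT arrays. The deleted genes were also uneven. On DAKO BAT arrays at 3 months Pnpla2 was at 14.04, 13.93 and 13.85 on replicates 1 to 3 and at 10.02 and 11.03 on replicates 4 and 5, against 12.91 to 13.31 on Control arrays. Lipe was at 8.95 on DAKO BAT replicate 5 at 3 months, at 9.07 and 8.69 on DAKO replicates 1 and 2 at 7 months and at 9.36, 9.18 and 9.44 on DAKO replicates 1 to 3 at 14 months, against 9.31 to 9.95 on Control BAT arrays at 3 months and 6.56 to 7.03 on Control BAT arrays at 7 months. At 7 months these DAKO arrays lay above every Control array. Pnpla2 was at 13.29, 10.17, 13.21 and 12.98 in ATGLAKO BAT at 7 months, against 9.37 to 13.50 in Control BAT, and at 13.18, 13.11, 11.03 and 10.75 in ATGLAKO BAT at 12 months, against 10.30 to 12.60 in Control BAT. It was at 14.14 on DAKO BAT replicate 3 at 12 months. Each of these groups had arrays with Pnpla2 inside or above the Control range. Where the probes lie relative to the deleted exons is not given in the sources used here. No array was moved to another group. Across the 72 arrays, 44.8 to 54.8% of probes were detected.

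Of the 37 measured genes, 33 were detected on all 72 arrays. Acaa1b, a peroxisomal thiolase, was detected on 68 and Hadh, the 3-hydroxyacyl-CoA dehydrogenase for shorter chains, on 63. Ehhadh, the peroxisomal bifunctional hydratase and dehydrogenase, was detected on 54. Sucla2, the subunit of succinyl-CoA ligase that makes ATP, was the dimmest with 20 arrays, and every listed gene with a probe passed the filter on at least 1 of its probes. Probes differ in brightness for reasons of their own, so levels are set side by side within a gene only. In GRCm38.p6 coordinates, Ehhadh lies at chr16:21761285-21787834, Acaa1b at chr9:119148043-119157093 and Cpt1b at chr15:89416405-89425862. Acaa1b has a near-identical neighbour, Acaa1a, and its signal is uncertain to that extent.

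At 3 months most genes of all 3 classes had lower signal in DAKO BAT than in Control BAT, and none passed the test. Mitochondrial oxidation had a median log2 fold change of -0.56 over 17 genes, peroxisomal oxidation -1.04 over 3 genes and the TCA cycle -0.40 over 17 genes, against -0.04 over all 12265 genes. Of the 37 genes 35 had a negative fold change. At an adjusted p under 0.01, limma called 0 of 37 (1.30% of all genes were called), and 2 had an unadjusted p under 0.05 (23.0% of all genes). The spread in this fit was pooled over all groups. The mitochondrial median had an SD of 0.11 in Control and 0.61 in DAKO BAT at 3 months, and 2.28 in DAKO BAT at 7 months. These shares, here and in the comparisons below, therefore do not show that the genes changed less than others. In bulk tissue, fewer brown adipocytes and less RNA per brown adipocyte cannot be told apart.

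Ehhadh had the most negative fold change. Its log2 signal was 5.88, 5.98, 7.25, 4.59 and 5.37 on the 5 DAKO BAT arrays, against 8.31, 7.93, 7.85, 7.44 and 7.21 on the 5 Control BAT arrays. Only DAKO replicate 3 reached the Control range. The log2 fold change was -1.93 (SE 0.62, adjusted p = 0.0521), and it was -1.96 with adjusted p = 0.00135 when each array carried a quality weight (11.4% of all genes were called in that fit). Acaa1b had 10.15, 10.15, 9.70, 9.01 and 9.47 on DAKO arrays, against 10.35, 11.41, 10.73, 10.90 and 10.27 on Control arrays. The groups did not overlap, although the highest DAKO array lay close under the lowest Control array. The log2 fold change was -1.04 (SE 0.75, adjusted p = 0.439).

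Among the genes listed under mitochondrial oxidation the lowest p belonged to Eci2, which moves double bonds so that unsaturated chains can be oxidized. It had 8.97, 8.79, 9.45, 7.84 and 8.46 in DAKO BAT, against 9.54, 9.21, 9.31, 9.33 and 9.25 in Control BAT (log2 fold change -0.63, SE 0.35, adjusted p = 0.289). DAKO replicate 3 lay inside the Control range. The carnitine-acylcarnitine carrier Slc25a20 had 12.70, 12.45, 12.54, 10.64 and 12.30 in DAKO BAT, against 13.09, 13.05, 12.95, 12.84 and 12.87 in Control BAT. All DAKO arrays lay below all Control arrays, with replicate 4 far below the rest (log2 fold change -0.84, SE 0.75, adjusted p = 0.553). Cpt2, which hands the chain back to CoA inside the mitochondrion, had 11.83, 11.49, 11.55, 10.23 and 11.63 in DAKO BAT, against 11.90, 12.09, 12.17, 12.08 and 12.09 in Control BAT (log2 fold change -0.72, SE 0.77, adjusted p = 0.629). The same replicate 4 was again lowest and the groups again did not overlap.

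In the TCA class the lowest p values were those of Sucla2, Dld and Dlat. Dld, the lipoamide dehydrogenase shared by the pyruvate and oxoglutarate complexes, had 8.03, 7.52, 7.32, 7.07 and 7.60 in DAKO BAT, against 8.55, 8.21, 8.40, 8.29 and 8.78 in Control BAT. The groups did not overlap (log2 fold change -0.94, SE 0.62, adjusted p = 0.391). With only these groups in the fit Dld passed, with adjusted p = 0.00654 at the same fold change (7.31% of all genes were called in that fit). Dlat, the acetyltransferase core of pyruvate dehydrogenase, had 9.35, 8.81, 8.96, 7.45 and 9.13 in DAKO BAT, against 9.25, 9.42, 9.82, 9.65 and 10.14 in Control BAT (log2 fold change -0.91, SE 0.76, adjusted p = 0.516). DAKO replicate 1 alone overlapped Control. Sucla2 was near background, at 4.68, 4.62, 4.59, 4.49 and 4.78 in DAKO BAT, against 4.35, 5.39, 4.48, 5.79 and 5.44 in Control BAT (log2 fold change -0.45, SE 0.21, adjusted p = 0.182). The Control arrays ran on both sides of the DAKO arrays.

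Counting arrays that do not overlap, 9 of the 37 genes were lower on every DAKO BAT array than on every Control BAT array at 3 months (8.82% of all genes were). They were Slc25a20, Cpt2, Acadvl, Acaa1b, Ogdh, Dlst, Dld, Fh1 and Mdh2. One gene, Idh2, the NADP-linked isocitrate dehydrogenase, was higher on every DAKO array (8.32% of all genes). It had 10.47, 10.47, 10.99, 10.23 and 10.61 in DAKO BAT, against 10.03, 9.81, 9.83, 10.17 and 10.18 in Control BAT (log2 fold change 0.55). The other isocitrate dehydrogenase genes, Idh3a, Idh3b and Idh3g, had fold changes of -0.38, -0.40 and -0.18. DAKO replicate 4 had the lowest Ucp1 of its group (11.82). Without it the medians were -0.27 for mitochondrial oxidation, -0.86 for peroxisomal oxidation and -0.20 for the TCA cycle. Without replicates 1 to 3, whose Pnpla2 was above Control, they were -1.07, -1.49 and -0.76, with 0 genes called (0.114% of all genes). That fit kept only DAKO replicates 4 and 5, whose mitochondrial medians were 10.64 and 11.84. Replicates 1 to 3 had 12.13, 11.86 and 12.08, so the low value rests mainly on replicate 4.

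Markers of other cells were read in the same comparison. All 14 measured macrophage markers were higher in DAKO BAT (median log2 fold change 2.84), and 5 passed the test. The mean macrophage signal was 8.34 to 10.34 on DAKO arrays and 6.29 to 6.62 on Control arrays. All 10 skeletal muscle markers were higher (median 2.22, 0 called), with a mean of 10.08 to 13.07 on DAKO arrays and 9.20 to 10.35 on Control arrays. All 7 brown adipocyte markers had negative fold changes (median -0.67, 0 called). Of 7 general adipocyte markers all were negative too (median -0.32, 0 called). Their part in the lower oxidation signal was not tested.

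HSLAKO BAT at 3 months, set against the same Control arrays, also had lower signal for most genes of all classes, and none passed the test. The medians were -1.11 for mitochondrial oxidation, -1.06 for peroxisomal oxidation and -0.95 for the TCA cycle, against -0.03 over all genes. Limma called 0 of 37 genes (2.63% of all genes), 8 had an unadjusted p under 0.05 (27.9% of all genes), and 36 had a negative fold change. The p-values here too rest on the spread pooled over all groups. On 29 of 37 genes every HSLAKO array lay below every Control array (14.0% of all genes), and on 0 genes above (12.6%). The 8 that overlapped were Hadh, Acaa2 and Etfa of mitochondrial oxidation, Acaa1b, and Cs, Idh2, Sucla2 and Fh1 of the TCA cycle. Set directly against HSLAKO BAT, DAKO BAT had a positive fold change for 37 of 37 genes (median 0.56), with 0 called (0% of all genes) and 0 at an unadjusted p under 0.05 (1.09% of all genes). The genes share the same few arrays, so their signs are not separate observations. HSLAKO replicates 2 and 3 had mitochondrial medians of 9.99 and 10.72, against 11.84 and 11.57 on replicates 1 and 4.

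Ehhadh again had the most negative fold change. It had 6.93, 4.52, 4.35 and 5.28 in HSLAKO BAT, against 8.31, 7.93, 7.85, 7.44 and 7.21 in Control BAT, with no overlap. Its log2 fold change was -2.48 (SE 0.66, adjusted p = 0.0124), just outside the threshold. It passed without HSLAKO replicate 1 (-3.03, adjusted p = 0.00561). Eci2 had 8.77, 7.91, 7.85 and 8.53 in HSLAKO BAT (log2 fold change -1.06, SE 0.37, adjusted p = 0.0528), all below the lowest Control array at 9.21. Slc25a20 had 12.08, 10.13, 10.72 and 11.79 (log2 fold change -1.78, SE 0.80, adjusted p = 0.135), and Dlat had 8.72, 6.94, 7.43 and 8.79 (log2 fold change -1.69, SE 0.81, adjusted p = 0.167). In each case HSLAKO replicates 2 and 3 were the low arrays, and these had mean macrophage signals of 10.58 and 10.20, against 8.39 and 8.19 on replicates 1 and 4. All 14 macrophage markers were higher than in Control BAT, 8 of them past the threshold (median 3.10). All 7 brown adipocyte markers had negative fold changes (median -1.04, 1 called), with a mean of 8.73 to 10.18 on HSLAKO arrays, under that of every Control array. Of 7 general adipocyte markers 6 were negative (median -0.48, 0 called), with a mean of 9.15 to 9.72 on HSLAKO arrays and 9.73 to 9.99 on Control arrays. All 10 skeletal muscle markers were higher (median 1.88, 0 called), with a mean of 10.24 to 12.89 on HSLAKO arrays and 9.20 to 10.35 on Control arrays. Their part in the lower oxidation signal was not tested. With only HSLAKO and Control BAT in the fit, 6 genes passed, namely Slc25a20, Cpt2, Eci2, Ehhadh, Dlst and Dld, all lower (6.53% of all genes were called lower in that fit and 6.82% higher).

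ATGLAKO BAT at 3 months, set against the same Control arrays, had mitochondrial and TCA medians close to 0, and none of the genes passed the test. The medians were -0.13 for mitochondrial oxidation, -0.65 for peroxisomal oxidation and 0.02 for the TCA cycle, against -0.02 over all genes. With arrays scaled to a common median the mitochondrial and TCA medians were -0.41 and -0.23, against -0.03 over all genes. Limma called 0 of 37 genes (0.253% of all genes) and 0 had an unadjusted p under 0.05 (15.7% of all genes). Ehhadh had 7.07, 7.57, 6.28, 5.74 and 6.06 in ATGLAKO BAT (log2 fold change -1.20), and replicate 2 alone reached the Control range of 7.21 to 8.31. Idh2 had 10.50, 10.83, 10.71, 10.69 and 10.72 in ATGLAKO BAT, against 10.03, 9.81, 9.83, 10.17 and 10.18 in Control BAT (log2 fold change 0.69), and was the 1 gene higher on every array (3.72% of all genes). Replicates 1 and 2, with the highest Ehhadh, also had Pnpla2 at 13.20 and 13.31, inside or at the top of the Control range. Without these 2 arrays the class medians were -0.30, -0.996 and -0.18 in the order above. All 10 skeletal muscle markers were higher in ATGLAKO than in Control BAT (median log2 fold change 2.35, 0 called), with a mean signal of 11.09 to 12.73 on ATGLAKO arrays and 9.20 to 10.35 on Control arrays. All 14 macrophage markers were higher too (median 1.57, 0 called), with means of 6.89, 6.37, 8.69, 8.51 and 8.74 on the ATGLAKO arrays and 6.29 to 6.62 on Control arrays. The brown adipocyte mean was 10.27 to 10.88 on ATGLAKO arrays and lay under that of every Control array, the highest of which was at 11.20. Their part in these values was not tested. Set directly against ATGLAKO BAT, DAKO BAT had a negative fold change for 37 of 37 genes (median -0.41), with 0 called (0.00815% of all genes) and 0 at an unadjusted p under 0.05 (5.83% of all genes).

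Whether both deletions together did more or less than the sum of each was tested as an interaction at 3 months. It was positive for 36 of 37 genes, which is to say that the DAKO value was less negative than the single knockouts added up. The medians were 0.71 for mitochondrial oxidation, 0.68 for peroxisomal oxidation and 0.51 for the TCA cycle, against 0.01 over all genes. Limma called 0 of 37 genes (0.00815% of all genes), and 0 had an unadjusted p under 0.05 (6.61% of all genes). Ehhadh had the largest interaction at 1.75 (adjusted p = 0.779). Without HSLAKO replicate 2 the mitochondrial and TCA medians were 0.37 and 0.27, and without HSLAKO replicate 3 the peroxisomal median was 0.42. Pnpla2 itself was not called lower in DAKO or ATGLAKO BAT (log2 fold changes -0.53 and -0.84, limma adjusted p = 0.814 and 0.757). The interaction is therefore one of labelled genotypes, not of measured losses of both transcripts.

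**Figure D1:**
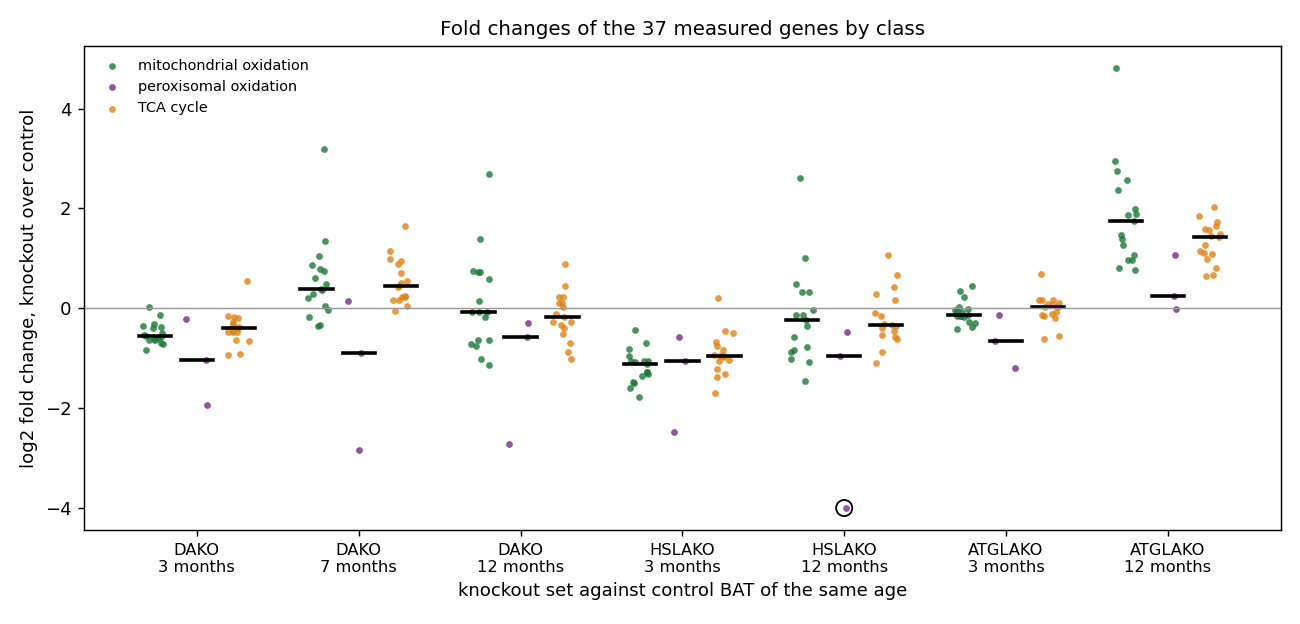
Log2 fold changes of the 37 measured genes in 7 comparisons of knockout with Control BAT, by class (colour). Each dot is a gene, black bars are class medians and the ring marks Acaa1b in HSLAKO BAT at 12 months (-4.00 on the measured values, 2 of 4 HSLAKO arrays not above background), which passed the test. The peroxisomal median lies below the mitochondrial one in all comparisons but HSLAKO at 3 months, where they are -1.06 and -1.11.

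At 7 and 12 months every Control BAT array carried mesothelial signal and low Ucp1, so genotype and kind of sample cannot be told apart in these comparisons. The mitochondrial and TCA values were mixed there. In DAKO BAT against Control BAT the medians for mitochondrial oxidation, peroxisomal oxidation and the TCA cycle were 0.38, -0.90 and 0.45 at 7 months, and -0.08, -0.57 and -0.17 at 12 months, against 0.02 and 0.05 over all genes. Limma called 0 of 37 genes at 7 months (1.75% of all genes) with 3 at an unadjusted p under 0.05 (23.1% of all genes), and 0 of 37 at 12 months (7.97% of all genes) with 1 at an unadjusted p under 0.05 (31.0% of all genes). The sign at 7 months turned without DAKO replicate 1, where the mitochondrial and TCA medians were -0.07 and -0.08. With arrays scaled to a common median they were -0.02 and -0.01, still above the -0.24 over all genes in that scaling. The peroxisomal median at 7 months was -1.26 without DAKO replicate 1 and -0.56 without replicate 3. At 12 months the 3 medians were 0.31, -0.13 and 0.19 without DAKO replicate 1, and -0.62, -0.90 and -0.79 without DAKO replicate 3.

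Cpt1b, the muscle and brown fat form of the enzyme that gates fatty acid entry into mitochondria, shows how the groups split. It had 12.16, 12.14, 6.46 and 5.54 in DAKO BAT at 7 months, against 5.75, 5.17, 6.99 and 5.58 in Control BAT (log2 fold change 3.20, SE 1.64, adjusted p = 0.245). At 12 months it had 5.24, 6.54, 11.97 and 8.86 in DAKO BAT, against 4.98, 6.44, 4.95 and 5.50 in Control BAT (log2 fold change 2.68, SE 1.64, adjusted p = 0.275). Control BAT at 3 months had 11.95, 12.27, 12.28, 12.21 and 12.46 and lay above all Control arrays of later ages. In ATGLAKO BAT at 12 months it had 11.95, 11.95, 11.96 and 5.26, and the low array was the one with mesothelial signal.

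In the knockout comparisons run, the gene that passed against Control was Acaa1b, which takes the last step of the peroxisomal spiral, in HSLAKO BAT at 12 months. It is described here because it passed, a choice made after its values were seen. It had 4.40, 4.33, 9.95 and 7.80 in HSLAKO BAT, against 11.09, 10.44, 10.26 and 10.68 in Control BAT. All HSLAKO arrays were lower, with replicate 3 just under Control. Acaa1b was detected on 2 of 4 HSLAKO arrays, and replicates 1 and 2 were not above background, so the size of the difference there is not known exactly. On the measured values it fell by 4.00 on the log2 scale (SE 0.84, adjusted p = 6.00e-04), the 1 gene of 37 called there (9.60% of all genes) and the 1 with no overlap downwards (9.89% of all genes). The call was lost without HSLAKO replicate 1 (-3.26, adjusted p = 0.0103) or replicate 2 (-3.24, adjusted p = 0.0107). Hsd17b4, the other bifunctional enzyme of the peroxisome, had 10.38, 9.98, 11.91 and 10.93 in HSLAKO BAT, against 11.62, 12.14, 11.61 and 11.66 in Control BAT (log2 fold change -0.95, SE 0.37, adjusted p = 0.0627). Here HSLAKO replicate 3 lay inside the Control range. The class medians were -0.23 for mitochondrial oxidation, -0.95 for peroxisomal oxidation and -0.34 for the TCA cycle.

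Acaa1b was low on part of the DAKO arrays too. It had 10.04, 9.62, 6.13 and 4.61 in DAKO BAT, against 10.94, 10.83, 10.41 and 9.55 in Control BAT at 7 months (log2 fold change -2.83, SE 0.84, adjusted p = 0.0300). At 12 months it had 4.48, 8.38, 10.12 and 8.63 in DAKO BAT, against 11.09, 10.44, 10.26 and 10.68 in Control BAT (log2 fold change -2.72, SE 0.84, adjusted p = 0.0202). At 12 months the groups did not overlap, as for 8.98% of all genes downwards, while at 7 months DAKO replicates 1 and 2 lay in the Control range. Both would pass at an adjusted p under 0.05, where 7.52% and 16.7% of all genes do. They passed the threshold of 0.01 without DAKO replicate 1 (-3.65) or 2 (-3.51) at 7 months and without DAKO replicate 3 (-3.46) at 12 months. The lowest DAKO values, 4.61 at 7 months and 4.48 at 12 months, lay near those of the HSLAKO arrays not above background. The sizes of the DAKO differences are therefore not known exactly either. ATGLAKO BAT at 12 months had 10.57, 10.53, 10.35 and 10.96, in the range of Control.

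General adipocyte markers were also lower where Acaa1b was. In HSLAKO BAT at 12 months 6 of 7 were called lower (median log2 fold change -3.17), in DAKO BAT at 12 months 2 of 7 (median -2.65). Mesothelial markers, which these Control arrays carry, were called lower in 7 of 11 and 9 of 11 cases. Lipe, the target in both groups, had a log2 fold change of -4.38 in HSLAKO BAT (adjusted p = 0.00125) and of -4.07 in DAKO BAT (adjusted p = 0.00292) at 12 months, where it was detected on 1 of 4 HSLAKO and 3 of 4 DAKO arrays, and of -0.02 and -0.04 in the same genotypes at 7 months. The part of fat cell content in the Acaa1b value was not tested.

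**Figure D2:**
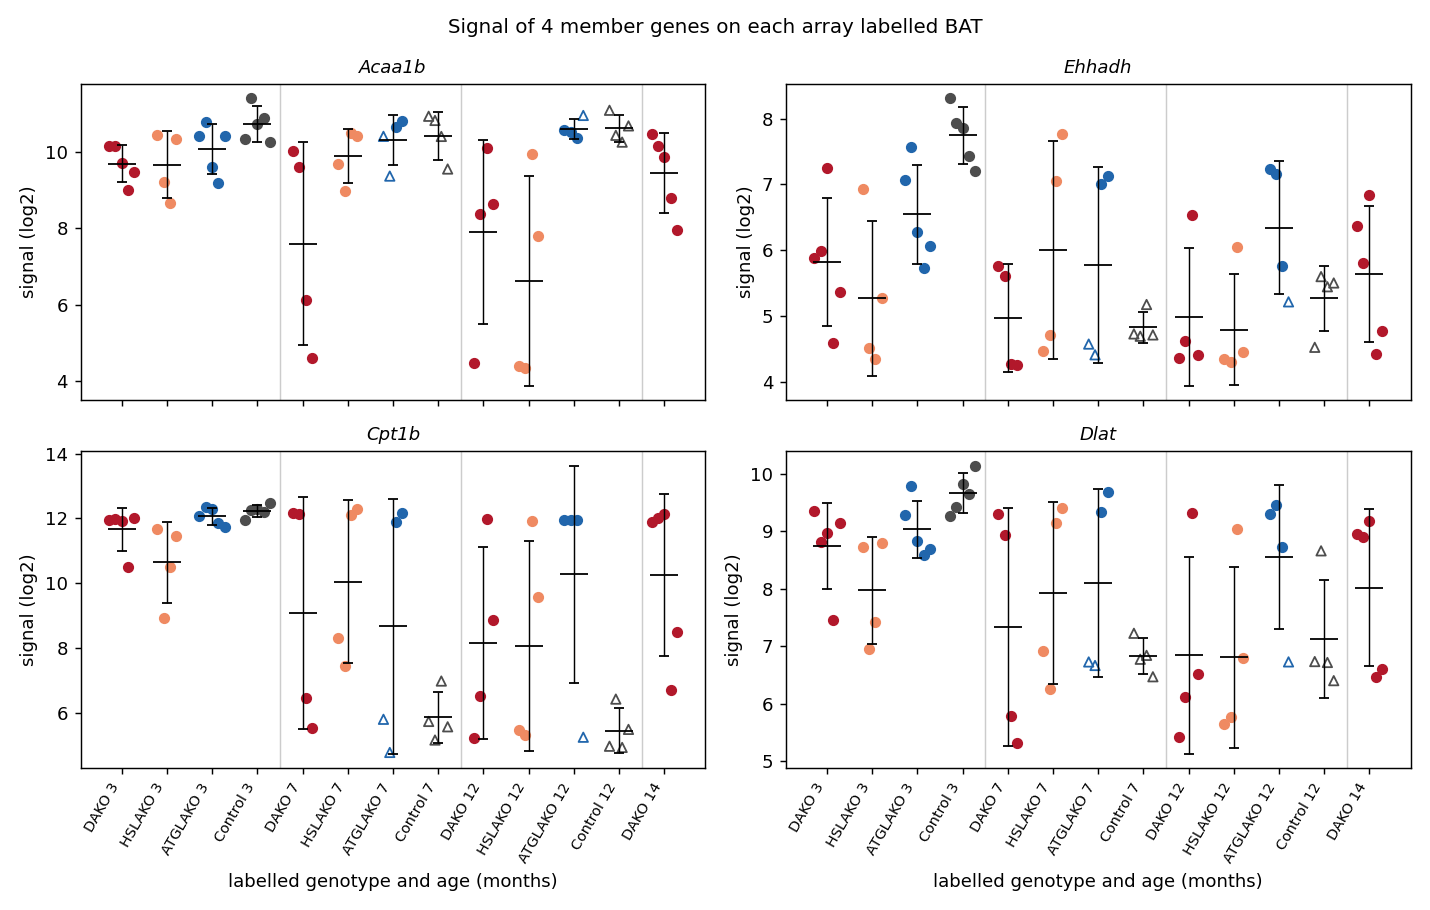
Log2 signal of Acaa1b, Ehhadh, Cpt1b and Dlat on each of the 56 arrays labelled BAT, by genotype and age in months, with mean ± SD (black). Open triangles are arrays with mesothelial signal. Cpt1b splits within a group, as in DAKO at 7 months with 12.16, 12.14, 6.46 and 5.54, while Acaa1b stays between 9.37 and 11.09 on the triangles.

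ATGLAKO BAT at 12 months had positive medians against Control BAT, 1.75 for mitochondrial oxidation, 0.24 for peroxisomal oxidation and 1.42 for the TCA cycle. Limma called 0 of 37 genes (0.636% of all genes), 18 had an unadjusted p under 0.05, all higher (21.7% of all genes), and on 9 genes the arrays did not overlap (4.48% of all genes). Ucp1 was at 13.52, 13.23, 13.37 and 6.65 on the ATGLAKO arrays, against 4.51, 4.33, 4.69 and 4.47 on the Control arrays, where it was above background on 1 of 4 (adjusted p = 0.0472), and 3 of 4 ATGLAKO arrays and 0 of 4 Control arrays lay above its gap. HSLAKO BAT at 7 months had 0 called (1.83% of all genes) and ATGLAKO BAT at 7 months 0 called (0% of all genes), with 4 and 1 genes higher at an unadjusted p under 0.05 (23.2% and 11.4% of all genes in either direction). The difference between the DAKO effect at 7 or 12 months and at 3 months was also tested, with 0 genes called each time (1.96% and 1.37% of all genes). DAKO BAT at 14 months against DAKO BAT at 12 months had 37 of 37 genes higher (medians 1.11, 0.66 and 0.84 in the same order), with 0 called (0% of all genes) and 1 at an unadjusted p under 0.05 (5.06% of all genes). Cpt1b had 11.89, 12.02, 12.15, 6.72 and 8.49 at 14 months, against 5.24, 6.54, 11.97 and 8.86 at 12 months, and the ages overlapped. Without the 4 arrays above the Ucp1 gap the medians were 0.19, 0.33 and -0.02. With quality weights on the arrays, 30 of 37 genes were called higher at 14 months (7.77% of all genes called higher and 7.54% lower in that fit). Such weights count an array less when it lies far from the rest of its group. Ucp1 was at 13.47, 13.56, 13.56, 6.21 and 6.82 at 14 months, and at 4.30, 5.84, 13.32 and 7.79 at 12 months. The weights therefore cannot tell array quality from the side of the Ucp1 gap.

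Control BAT had higher signal than Control WAT at 3 months for 37 of 37 genes, with medians of 0.91 for mitochondrial oxidation, 0.46 for peroxisomal oxidation and 0.67 for the TCA cycle. Limma called 0 of 37 (0.0489% of all genes), 0 had an unadjusted p under 0.05 (13.4% of all genes), and on 5 genes the arrays did not overlap (5.98% of all genes). Cpt1b had 11.95, 12.27, 12.28, 12.21 and 12.46 in Control BAT, against 5.34, 12.19 and 11.87 in Control WAT. WAT replicates 2 and 3 had Ucp1 at 13.60 and 13.29 and lay in the BAT range. Without replicate 1, the WAT array with mesothelial signal, the medians were 0.21, 0.58 and 0.07. In ATGLAKO mice, BAT against WAT gave medians of 1.74, 0.12 and 1.30 with 0 called (0.538% of all genes) and 21 genes higher at an unadjusted p under 0.05 (22.9% of all genes). There Cpt1b had 12.07, 12.37, 12.29, 11.86 and 11.74 in BAT, against 4.97, 4.93, 4.96, 4.99 and 12.09 in WAT (log2 fold change 5.68, adjusted p = 0.0220), and the WAT array that overlapped BAT was the one without mesothelial signal. DAKO against Control WAT had medians of -0.36, -1.31 and -0.24, with 0 called (0% of all genes) and 1 at an unadjusted p under 0.05 (5.77% of all genes). Without DAKO WAT replicate 2, whose Ucp1 was at 6.12, the mitochondrial, peroxisomal and TCA medians were 0.15, -0.77 and 0.11, and the other 3 DAKO WAT arrays had Ucp1 at 11.45 to 13.40. The difference of the DAKO effect between BAT and WAT had 0 called (0% of all genes) and 0 at an unadjusted p under 0.05 (4.93% of all genes). ATGLAKO and HSLAKO against Control WAT, and BAT against WAT in DAKO and in HSLAKO mice, each had 0 called (0% of all genes), with 1 gene at an unadjusted p under 0.05 in the ATGLAKO comparison (3.38% of all genes) and 0 in the others (0.970 to 2.84% of all genes).

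Signal of the 37 measured genes moved with that of Ucp1. On the 56 arrays labelled BAT, with a term for each of the 13 labelled groups, all 37 measured genes rose with the array's own Ucp1 signal (37 of 37 called rising at an adjusted p under 0.01 from limma, against 20.0% of all genes called rising and 26.0% called falling). The median slope was 0.39 for mitochondrial oxidation, 0.25 for peroxisomal oxidation and 0.29 for the TCA cycle, in log2 signal of the gene per log2 unit of Ucp1, against a median close to 0 over all genes. Gene and covariate were read on the same arrays and share their RNA.

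**Figure D3:**
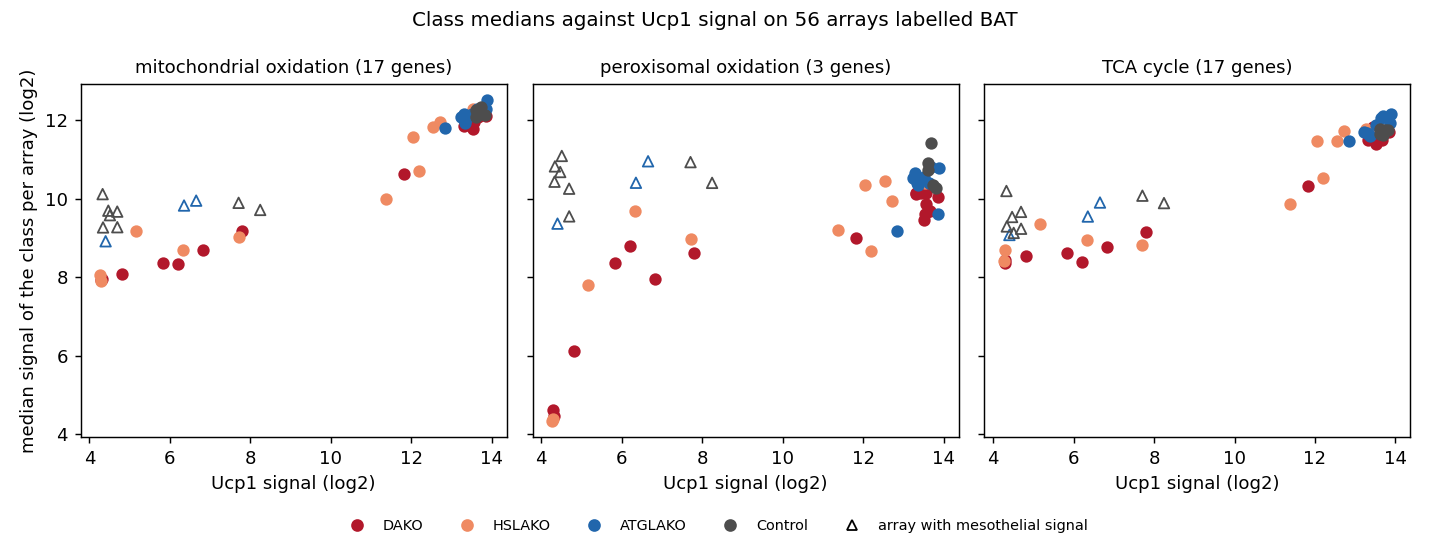
Median log2 signal of each class against log2 Ucp1 signal on the 56 arrays labelled BAT, coloured by genotype. Open triangles are the 11 arrays with mesothelial signal. These have Ucp1 at 8.25 or less with peroxisomal medians of 9.37 to 11.09, while the other 12 arrays with low Ucp1 run from 4.33 to 9.68. Both ranges are those of Acaa1b, the middle gene of the 3 in the class. Ehhadh does not share the difference, with 4.41 to 5.60 on the triangles and 4.25 to 4.77 on the other 12.

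Within mitochondrial oxidation, the steepest genes were Cpt1b (slope 0.72, SE 0.037, adjusted p = 8.83e-21) and the thiolase Acaa2 (0.52, SE 0.026). Acadvl and Acadl, the dehydrogenases for very long and long chains, and Hadhb, the thiolase subunit of the trifunctional protein, each had a slope of 0.43. Acads and Acadm, the short- and medium-chain dehydrogenases, had 0.33 and 0.30 (SE 0.020 and 0.017). The electron carriers followed, with 0.39 for Etfdh, 0.27 for Etfb and 0.23 for Etfa. Eci2 had the smallest slope of the class at 0.15 (SE 0.0165), and the other genes ran from 0.26 for Hadh to 0.42 for Decr1. Probes near background or at the top of the scale can give flatter slopes, so the order between genes is approximate. Hadh ran from 4.40 to 5.38 on the arrays with low Ucp1 and no mesothelial signal, while Acadm and Etfa reached 14.06 above the Ucp1 gap.

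In the TCA class Idh3a, the catalytic subunit of the NAD-linked isocitrate dehydrogenase, had the largest slope at 0.45 (SE 0.020), and its partner subunits Idh3b and Idh3g had 0.32 and 0.27. Pdhb and Dlat of pyruvate dehydrogenase had 0.42 and 0.37, and Cs, which condenses acetyl-CoA with oxaloacetate, had 0.31. The lowest p of all belonged to Suclg1, the subunit shared by both succinyl-CoA ligases (0.33, SE 0.014, adjusted p = 1.21e-23). The oxoglutarate dehydrogenase Ogdh had 0.35, the fumarase Fh1 0.34 and the malate dehydrogenases Mdh2 and Mdh1 0.29 and 0.27. Suclg2, a partner of Suclg1, had 0.18, and Sucla2 had 0.06 (SE 0.014, adjusted p = 4.18e-04). Sucla2 was detected on 20 of 72 arrays, and its slope was measured near background. The peroxisomal genes had 0.31 for Acaa1b (SE 0.046), 0.25 for Ehhadh (SE 0.030) and 0.15 for Hsd17b4 (SE 0.016).

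The slopes were also fitted on subsets of the arrays. On the 33 arrays above the Ucp1 gap alone, 31 of 37 genes were called rising (3.30% of all genes rising, 2.34% falling), with medians of 0.82 for mitochondrial oxidation, 0.57 for peroxisomal oxidation and 0.62 for the TCA cycle. Those not called were Etfb, Ehhadh, Acaa1b, Idh2, Dld and Sucla2. On the same arrays 29 were called rising along Pnpla2 (7.49% of all genes) and 26 along Lipe (6.04% of all genes). On BAT arrays at 3 months alone 12 of 37 were called rising along Ucp1, 25 along Pnpla2 and 7 along Lipe, where 0.473%, 4.83% and 1.99% of all genes were called rising. The median slopes along Ucp1 were larger there than on all BAT arrays, at 0.84 for mitochondrial oxidation, 0.58 for peroxisomal oxidation and 0.64 for the TCA cycle, and Cpt1b, with a slope of 1.05 (adjusted p = 0.0118), was among the genes not called. Without the arrays with mesothelial signal 37 of 37 were called rising along Ucp1 (18.8% of all genes).

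The lipase genes were then used as the covariate, each alone. Along Lipe 37 of 37 genes were called rising (19.5% of all genes rising, 24.3% falling), with medians of 0.79, 0.54 and 0.62 for mitochondrial oxidation, peroxisomal oxidation and the TCA cycle. Cpt2 had the lowest p (slope 0.82, SE 0.058, adjusted p = 5.58e-15). Along Pnpla2 36 of 37 were called rising (14.9% of all genes rising, 17.1% falling), all but Sucla2, with medians of 0.52, 0.43 and 0.38. Slc25a20 had the lowest p (slope 0.54, SE 0.083, adjusted p = 4.58e-06). With Ucp1, Pnpla2 and Lipe in 1 fit, 31 genes were called rising along Ucp1 (3.23% of all genes), 1 along Pnpla2 (Slc25a20; 0.652% of all genes) and 2 along Lipe (Cpt2 and Echs1; 0.620% of all genes). The 6 genes then lost along Ucp1 were Eci2, Ehhadh, Hsd17b4, Acaa1b, Sucla2 and Suclg2, among them all 3 peroxisomal genes.

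**Figure D4:**
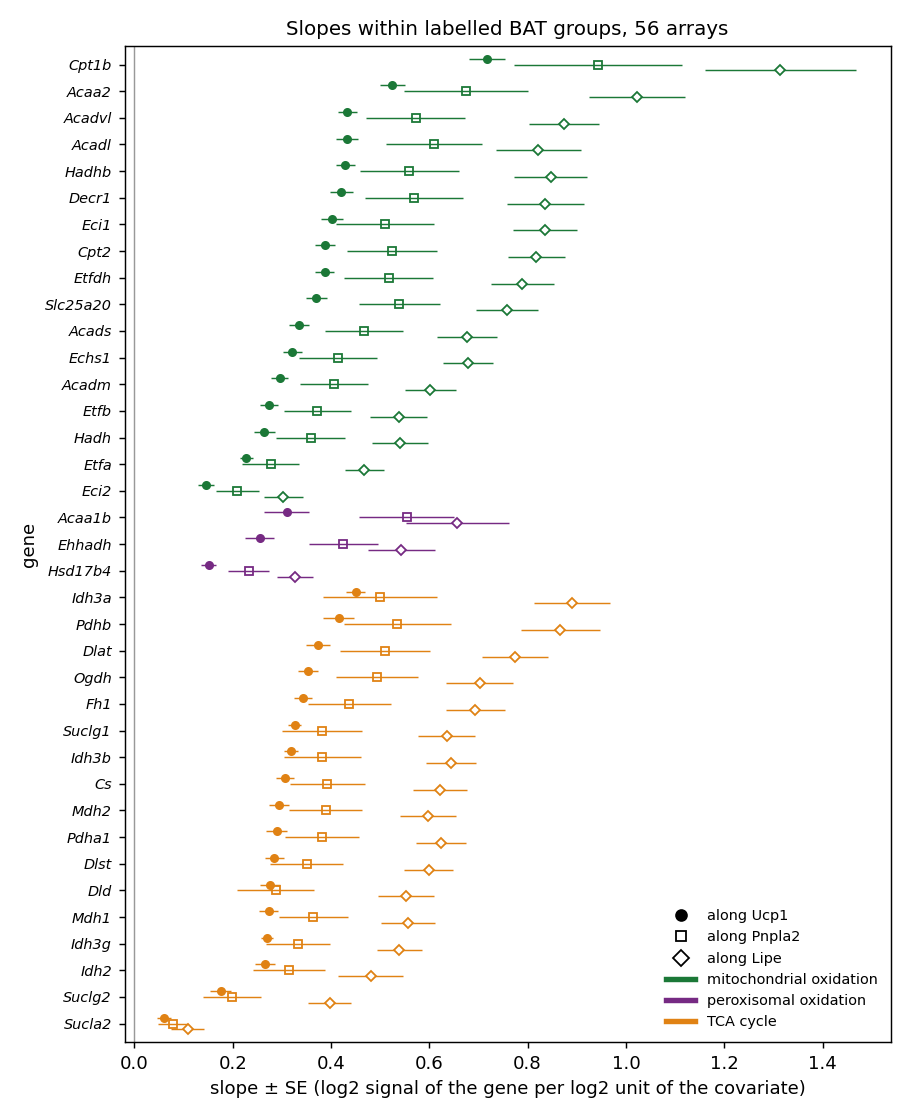
Slope ± SE of each measured gene along the signal of Ucp1 (filled circle), Pnpla2 (open square) and Lipe (open diamond), per log2 unit within labelled BAT groups on 56 arrays, coloured by class. Every slope lies right of 0, from 0.06 for Sucla2 to 0.72 for Cpt1b along Ucp1.

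Other cell types also varied along Ucp1. All 10 skeletal muscle markers were called rising (median slope 0.49) and 13 of 14 macrophage markers falling (median -0.26). Muscle expresses Cpt1b and most of this pathway. When the mean signals of both marker lists were added to the fit, a choice made after seeing the data, 33 of 37 genes were called rising along Ucp1 (8.14% of all genes), all but Eci2, Ehhadh, Acaa1b and Sucla2, and the medians were 0.30, 0.12 and 0.25. In that fit 29 genes were called rising along Lipe (4.97% of all genes) and 0 along Pnpla2 (0.0326% of all genes), where the medians were 0.08, 0.11 and 0.02.

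The arrays with low Ucp1 were of 2 kinds. Among the peroxisomal genes, Acaa1b and Hsd17b4 ran differently on them, while Ehhadh was low on both. On the 11 BAT arrays with mesothelial signal, Acaa1b ran from 9.37 to 11.09 (median 10.44), close to the 8.66 to 11.41 (median 10.35) of the 33 arrays above the Ucp1 gap. On the 12 remaining arrays it ran from 4.33 to 9.68 (median 7.88). Cpt1b ran from 4.79 to 6.99 on the mesothelial arrays, from 8.94 to 12.46 above the gap and from 5.24 to 9.59 on the remaining arrays. Hsd17b4 ran from 11.31 to 12.14, from 11.36 to 12.72 and from 9.86 to 11.50 in the same order. Ehhadh ran from 4.41 to 5.60 (median 4.73), from 4.35 to 8.31 (median 6.54) and from 4.25 to 4.77 (median 4.42). Such differences were not particular to peroxisomal genes. Echs1 ran from 10.02 to 11.50 on the mesothelial arrays and from 8.41 to 9.76 on the remaining arrays. Fh1 ran from 9.54 to 10.41 and from 8.00 to 9.01 in the same order. Cpt1b, Acadl, Hadh, Decr1, Idh2 and Dld went the other way, with higher medians on the remaining arrays. General adipocyte markers had a mean of 9.12 to 10.60 on the mesothelial arrays, 9.05 to 10.03 above the gap and 5.41 to 8.38 on the remaining arrays. These array kinds were read from the data and are given as ranges with no test.

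Of 55 further genes of the same pathways 41 were measured. Along Ucp1 34 were called rising and 4 falling (median slope 0.17). By class, 12 of 13 mitochondrial, 11 of 13 peroxisomal and 11 of 15 genes of the TCA cycle and pyruvate entry were called rising. Pdk4, the kinase that shuts off pyruvate dehydrogenase when fat is burned, had the largest slope at 0.52. Crat, carnitine acetyltransferase, and Pcca of propionyl-CoA carboxylase had 0.36 each, and the succinate dehydrogenase subunit Sdhb had 0.32. The genes that fell with Ucp1 were Pdk3 (-0.23), another pyruvate dehydrogenase kinase, the malic enzyme Me2 (-0.12), Acsl4 (-0.11), which prefers arachidonate, and Pdp1 (-0.06), which reactivates pyruvate dehydrogenase. In DAKO against Control BAT at 3 months 0 of 41 were called and 36 had a negative fold change (median -0.61). In HSLAKO BAT at 12 months 3 of 41 were called lower, a share not above the 9.60% of all genes called in either direction. These, all from the peroxisomal list, were the very-long-chain acyl-CoA transporter Abcd2 (-3.32, adjusted p = 1.44e-04), the thiolase and sterol carrier Scp2 (-2.12, adjusted p = 3.12e-04) and Acaa1a (-0.77, adjusted p = 0.00130). General adipocyte markers were also lower in that comparison, and its Control arrays carried mesothelial signal. In the other comparisons of knockout with Control BAT, 1 of 41 was called lower in HSLAKO BAT at 3 months (the peroxisomal thioesterase Acot8, adjusted p = 0.00594), 1 in DAKO BAT at 7 months (Acaa1a, -0.77, adjusted p = 0.00552) and 1 in DAKO BAT at 12 months (Scp2, -1.63, adjusted p = 0.00496), against the shares of all genes given above for these comparisons.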

How the data were processed

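The authors hybridized labelled RNA from 72 samples to MouseRef-8 v2.0 arrays and exported, with BeadStudio, bead intensities and a detection p-value for each of 25697 probes, deposited without normalization. A table of the authors' normalized intensities was also deposited. Its normalization steps are not given in the sources used here, its ranks equal those of the raw values on each array (rank correlation 1), and it served as an alternative. The median raw intensity was 94.7 to 160.6 per array, and the number of arrays limits the precision. No 2 arrays held identical values.

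Intensities were background-corrected, quantile-normalized and put on the log2 scale with neqc (limma 3.58.1, R 4.3.3, offset 16). Probes with a detection p under 0.05 on 3 or more arrays were kept (18083). Of all probes, 23978 had 1 gene symbol in the platform annotation and 1719 had none. Limma fitted the 17 labelled groups together (55 residual degrees of freedom). Slopes came from limma on the 56 BAT arrays with a term for each group and 1 covariate (42 residual degrees of freedom). P-values were adjusted by Benjamini-Hochberg over all probes tested, and a gene was called under 0.01 on its brightest probe. These fits were tested on simulated data with independent noise for each probe, and with reduced noise for the slopes. The simulation had no shared movement of genes and no split within groups, so it does not bear on those features of the arrays.

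The members and lists were chosen with earlier results of these data known. Named with values in each sample were the genes with the lowest p in DAKO against Control BAT at 3 months, 3 each of mitochondrial oxidation and the TCA cycle and 2 of peroxisomal oxidation, and in other main comparisons the called gene with the lowest p. Genes with the largest, smallest or best supported slopes were named with the slope, and further genes were named after their values were seen. Alternatives covered background correction, scaling, filters, thresholds, array weights, the samples fitted, a replicate block and left-out arrays. Same-numbered replicates did not deviate together throughout (correlations of -0.51 to 0.80), so the numbers were not taken as pairs.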

Additional observations from a re-analysis of the deposited data

Results flagged for a closer look

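Of 87 groups of values tested, 12 had 1 array set far apart from the others by Dixon's criterion, which chance passes in about 1 group in 20. Replicate 4 of DAKO BAT at 3 months was the lowest of its 5 arrays in the mitochondrial median (10.64), Slc25a20 (10.64), Cpt2 (10.23) and Dlat (7.45). Replicate 4 of ATGLAKO BAT at 12 months, the array of that group with mesothelial signal, was the lowest of 4 in the mitochondrial median (9.95), the TCA median (9.91) and Cpt1b (5.26). Replicate 5 of ATGLAKO WAT, the array of that group without mesothelial signal, was the highest of 5 in the mitochondrial median (12.26), the TCA median (11.97) and Cpt1b (12.09). Replicate 1 of HSLAKO WAT had the lowest TCA median of 4 (10.07), and replicate 2 of Control BAT at 12 months had the highest Hsd17b4 of 4 (12.14). None of the interaction tests between genotypes, ages or tissues called a gene of this pathway.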

How the results depend on the processing

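The counts of called genes in HSLAKO against Control BAT at 3 months came to 1 (Ehhadh) with the authors' normalized values, no background correction, an offset of 50, a stricter detection filter, an adjusted p under 0.05 or without the arrays with mesothelial signal (2.37 to 11% of all genes were called in these fits), to 2 with array weights (15.1% of all genes) and to 6 when the fit held those groups alone (13.4%). In DAKO against Control BAT the count was 1 with array weights (Ehhadh, 11.4% of all genes) or when those groups alone were fitted (Dld, 7.31%) at 3 months. At 7 months it was 1 (Acaa1b) with arrays scaled to a common median (8.01% of all genes) or an adjusted p under 0.05 (7.52%), and 2 with array weights (Cpt1b and Idh2, 3.91%). At 12 months it was 1 (Acaa1b) with the authors' values (7.35% of all genes), a common median (17.5%) or an adjusted p under 0.05 (16.7%), and 4 with array weights (Cpt1b, Echs1, Acaa1b and Suclg2, 24.9%). The common median moved the median of all genes to -0.24 in both of these comparisons. Array weights gave 30 calls in DAKO BAT at 14 against 12 months (15.3%), where they cannot tell array quality from the side of the Ucp1 gap. Along Pnpla2 the count was 1 with all 3 covariates in 1 fit (1.23%) and 0 with muscle and macrophage means (0.0326%). Along Lipe it was 2 with all 3 covariates (0.954%) and 7 on BAT arrays at 3 months (2.87%), where it was 12 along Ucp1 (0.579%). Leaving out each array in turn gave 0 to 1 calls in HSLAKO BAT at 3 months and in DAKO BAT at 7 and at 12 months, 0 to 0 in the other main comparisons, and 37 to 37 along Ucp1, 34 to 36 along Pnpla2 and 36 to 37 along Lipe. Fits with a replicate block called 0 genes in each of the 9 main comparisons and 37, 35 and 37 along Ucp1, Pnpla2 and Lipe. In the main fits 20.0%, 14.9% and 19.5% of all genes were called rising along these covariates. No result changed sign past the threshold. Subsets by age, Ucp1 or Pnpla2 signal and the marker terms were chosen after seeing the data. The slopes were not run with a minimum fold, and DAKO against Control BAT at 7 and 12 months had no Control array left once arrays with mesothelial signal were removed. Signal near background limits Sucla2 most, with 20 of 72 arrays detected, then Ehhadh with 54.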
